A study of Mus musculus with 20 samples.

Results

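The 6 genes described here form the E protein and Id circuit: the E protein genes Tcf3, Tcf4 and Tcf12, and the inhibitor genes Id1, Id2 and Id3. A peak of open chromatin was assigned to 1 of them when its centre lay inside the gene, or otherwise when that gene had the nearest boundary among protein-coding genes of mm10 (the shortest where several held the centre). Of the 125343 peaks in the study, 181 were assigned in this way, 98 to the E protein genes and 83 to the Id genes. Tcf4 had 67, Tcf12 24, Tcf3 7, Id2 66, Id3 10 and Id1 7. An assignment marks a neighbour on the chromosome and does not show which gene a region regulates. The data are ATAC-seq counts, which measure how readily a transposase inserts into DNA, from LSK cells (Lin-cKit+Sca1+), the bone marrow compartment of mouse stem cells and multipotent progenitors.

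There were 5 genotypes of C57Bl/6J mice aged 3 to 4 months, with 4 libraries per genotype and 2 pooled mice per library. Controls (WT) were +/+;Vav-Cre, where Vav-Cre drives the Cre recombinase in blood cells. The Idh1 R132H (Idh1LSL-R132H/+;Vav-Cre), Idh2 R140Q (Idh2LSL-R140Q/+;Vav-Cre) and Idh2 R172K (Idh2LSL-R172K/+;Vav-Cre) mice carried the same Cre with a mutant allele that Cre switches on. These alleles make an isocitrate dehydrogenase that produces 2-hydroxyglutarate, a metabolite that inhibits 2-oxoglutarate-dependent enzymes, TET2 among them. Tet2-/- mice (Tet2 KO) lacked TET2, which oxidizes methylated cytosine, and no Cre is named for them, so the absence of Vav-Cre and the loss of TET2 cannot be told apart in that comparison. The design sets each mutant against WT, and the Idh mutants against Tet2 loss.

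E proteins are basic helix-loop-helix transcription factors that bind E-boxes, short sites of the form CANNTG, as dimers with each other or with partners such as TAL1. They push lymphoid progenitors towards B, T and plasmacytoid dendritic cell fates and restrain the expansion of stem cells. Id proteins have the helix-loop-helix but no DNA-binding part, so they capture E proteins in dimers that cannot bind DNA. The balance between both families sets E protein activity in bone marrow progenitors.

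The start regions of Tcf3, Tcf12, Id2 and Id3 are shown because they lie in the start-site peaks described next, and the internal start of Tcf12 because it contrasts with them. The 250 bases before each start are given 5′ to 3′ on the gene's strand from RefSeq, build GRCm38.p6 (the assembly of mm10), with E-boxes (CANNTG) in capitals.
Tcf3, chr10:80433636-80433885, minus strand: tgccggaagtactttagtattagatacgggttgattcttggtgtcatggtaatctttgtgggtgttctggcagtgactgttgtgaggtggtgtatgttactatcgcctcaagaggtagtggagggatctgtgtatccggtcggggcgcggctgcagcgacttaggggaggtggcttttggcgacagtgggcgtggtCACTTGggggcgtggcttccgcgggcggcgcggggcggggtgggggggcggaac
Tcf12 first start, chr9:72111820-72112069, minus strand: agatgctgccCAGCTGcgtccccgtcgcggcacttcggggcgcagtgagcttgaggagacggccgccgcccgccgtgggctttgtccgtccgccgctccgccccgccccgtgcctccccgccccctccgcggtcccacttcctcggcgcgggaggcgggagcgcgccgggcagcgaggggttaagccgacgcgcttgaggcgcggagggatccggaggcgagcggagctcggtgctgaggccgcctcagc
Tcf12 internal start, chr9:71896097-71896346, minus strand: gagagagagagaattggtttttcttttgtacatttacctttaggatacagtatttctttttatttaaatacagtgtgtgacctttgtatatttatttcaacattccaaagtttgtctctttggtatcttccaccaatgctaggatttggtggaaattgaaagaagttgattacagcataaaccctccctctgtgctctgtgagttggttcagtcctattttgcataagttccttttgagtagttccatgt
Id2, chr12:25096093-25096342, minus strand: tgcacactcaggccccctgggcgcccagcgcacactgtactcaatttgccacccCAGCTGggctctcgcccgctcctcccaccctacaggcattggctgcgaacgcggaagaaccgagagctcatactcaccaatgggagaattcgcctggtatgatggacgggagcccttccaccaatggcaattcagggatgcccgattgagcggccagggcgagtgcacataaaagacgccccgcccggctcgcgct
Id3, chr4:136143572-136143821, plus strand: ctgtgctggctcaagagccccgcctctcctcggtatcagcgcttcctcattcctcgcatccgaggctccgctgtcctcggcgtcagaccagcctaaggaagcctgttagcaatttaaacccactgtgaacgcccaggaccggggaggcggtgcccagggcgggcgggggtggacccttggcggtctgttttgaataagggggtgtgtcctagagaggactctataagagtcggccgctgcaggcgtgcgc
The table held promoters for 4 of the 6 genes, and those of Tcf4 and Id1 are named only. CANNTG reads the same on both strands, and 66.2% of 32851 promoter windows of this length held at least 1. The Tcf3, Id2 and first Tcf12 windows held 1 each, of the form CAGCTG in Id2 and Tcf12, a form present in 13% of windows. No CANNTG occurs in the Id3 window or in that of the internal Tcf12 start. The windows differed more in CpG dinucleotides, the usual target of DNA methylation: 38 at the first Tcf12 start and 18 each at Tcf3, Id2 and Id3, against a median of 6 over all windows. The internal Tcf12 start had 0 CpG and a GC content of 34.8%, against 76.8% at the first start.

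Libraries held 10502052 to 27890340 counts in peaks, and the shallowest was Idh2 R172K library 2. Every genotype had 2 libraries with low signal at Xist (3.91 to 5.17 CPM, counts scaled to a common library total) and 2 with high signal (32.2 to 40.4 CPM), a split that does not separate the genotypes. Accessibility does not check the point mutations or the Tet2 deletion: of 30 tested Tet2 peaks 0 were called in Tet2 KO (lowest edgeR adjusted p 0.101), and 7 of 8 Idh2 peaks were raised in Idh2 R172K. All 10 LSK marker genes had peaks, and these summed to between 1440 and 1680 CPM in every library. Markers of other cells mostly had peaks too. These were 5 of 6 each for B cells, T cells, neutrophils and monocytes, and erythroid cells. For plasmacytoid dendritic cells and for stroma they were 6 of 6. The genes without a peak were Cd79a (B cells), Cd8a (T cells), Ly6g (neutrophils) and Hba-a1 (red cells). In bulk libraries, fewer cells with an open region and less opening per cell cannot be told apart.

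In Idh2 R172K, 35 of 66 peaks around the E protein gene Tcf4 were less accessible than in WT, while the start-site peak of none of the 6 genes was lowered and that of the inhibitor Id1 was raised (log2 fold change 0.92). A peak is called here when its adjusted p (edgeR, over all tested peaks) is under 0.05, and is then raised or lowered. Of 180 tested peaks of the 6 genes, 28 were raised and 64 lowered against WT. This is 51.1% called, near the 53% of all tested peaks. The lowered share was 35.6%, against 27.9% of all tested peaks, and the raised share 15.6%, against 25.1%. Beyond a 2-fold change 28 of the 180 were lowered and 1 was raised. Over all tested peaks 13.2% were lowered and 3.63% raised that far. The median log2 fold change was -0.13 over the members and 0.01 over all peaks. All 4 mutant libraries lay below all 4 WT libraries in 57 of the 64 lowered peaks, and above them in 19 of the 28 raised ones. These are 89.1% of the lowered and 67.9% of the raised, against 80.6% and 75.5% over all called peaks. Within the libraries low at Xist 81 member peaks were called (45%, against 42.1% of all tested peaks), and within those high at Xist 60 (33.3%, against 34.8%).

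**Figure D1:**
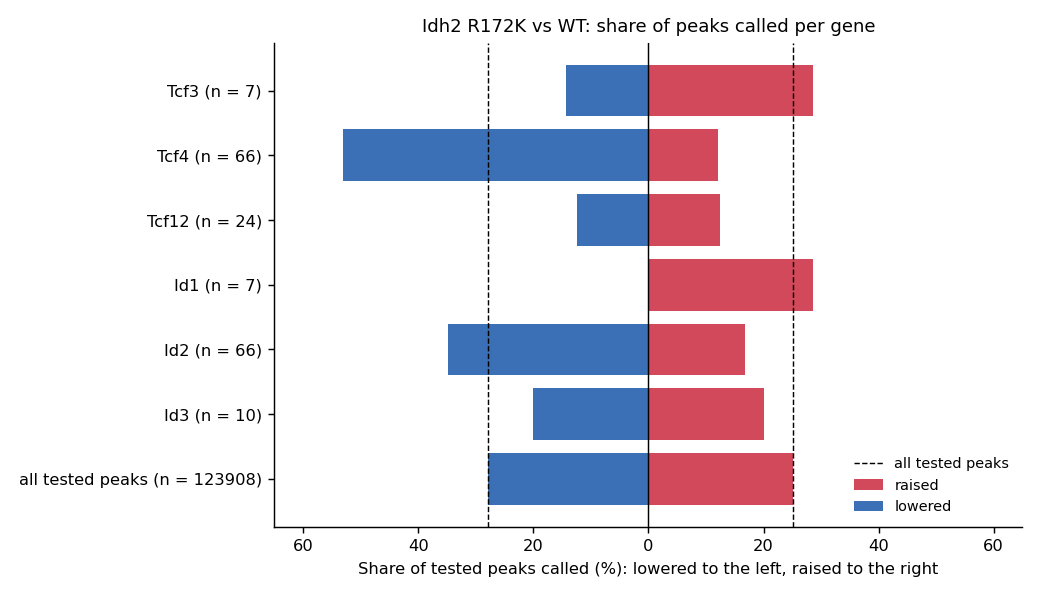
Share of tested peaks raised (right, red) and lowered (left, blue) in Idh2 R172K against WT for each gene, with the share over all 123908 tested peaks as dashed lines (25.1% raised, 27.9% lowered). Tcf4 had 53% of its 66 peaks lowered, and Id1 had none lowered.

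Tcf4 encodes E2-2, the E protein required for plasmacytoid dendritic cells. The gene spans chr18:69343429-69687967 and its peaks reached 453.7 kb beyond the gene. In Idh2 R172K, 35 of its 66 tested peaks were lowered (53%) and 8 were raised (12.1%), against 27.9% and 25.1% of all tested peaks. The median log2 fold change was -0.53. Leaving out 1 library at a time gave 32 to 36 lowered peaks, and other scalings of the libraries 30 to 37. Within the libraries low at Xist 32 were lowered, and within those high at Xist 20, where 18.9% of all tested peaks were lowered. Lowered peaks lay on both sides of the start: 17 of 28 inside the gene outside the promoter class, and 16 of 28 before the start. The 4 peaks past the end of the gene were not called (lowest edgeR adjusted p 0.0513). Of its 6 peaks in the deposited promoter class, 3 were raised and 2 lowered.

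The lowest p among Tcf4 peaks belonged to an intronic one at chr18:69613750-69614999, 270.9 kb after the first start. It had 8.04, 7.82, 7.56 and 6.97 CPM in the WT libraries and 1, 0.974, 1.22 and 0.901 CPM in the Idh2 R172K libraries. Idh1 R132H (6.57 to 8.09 CPM), Idh2 R140Q (5.95 to 7.73) and Tet2 KO (5.99 to 7.8) all overlapped WT, so the Idh2 R172K libraries alone were low. The log2 fold change in Idh2 R172K was -2.86 ± 0.146 (SE, n = 4 and 4, edgeR adjusted p = 9.57e-20). The next lowest p belonged to an intergenic peak 146.8 kb before the start (chr18:69196043-69197199). It fell from 19.3 ± 1.59 to 9.19 ± 0.8 CPM (SD, n = 4), a log2 fold change of -1.07 ± 0.0855 (edgeR adjusted p = 6.94e-14). No Idh2 R172K library there exceeded 9.76 CPM and no WT library was under 18 CPM.

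Another Tcf4 region, intronic at chr18:69439364-69439675 and 96.1 kb after the start, was nearly closed in Idh2 R172K. It had 1.63, 1.6, 1.25 and 2.01 CPM in WT and 0.0769, 0.195, 0.148 and 0 CPM in Idh2 R172K, groups that do not overlap. Its fitted log2 fold change was -3.99 ± 0.388 (edgeR adjusted p = 1.96e-11), a size that rests on very few counts in the mutant. Near the start the direction differed. The start-site peak (chr18:69344054-69344727) had 37.7, 36.5, 33.1 and 41.3 CPM in WT and 43.9, 37.6, 42.5 and 47.9 CPM in Idh2 R172K. A peak of the promoter class 2.8 kb after the start (chr18:69345761-69346755) rose from 9.05 ± 0.283 to 12.5 ± 1.79 CPM (SD, n = 4), a log2 fold change of 0.46 ± 0.103 (edgeR adjusted p = 2.49e-04, but 0.097 within the libraries high at Xist). One of its Idh2 R172K libraries, at 9.8 CPM, stood close to WT. The raised Tcf4 peak with the lowest p lay 231.8 kb before the start (chr18:69111453-69111867) and rose from 2.43 ± 0.475 to 3.78 ± 0.657 CPM (SD, n = 4), with overlapping groups (log2 fold change 0.7 ± 0.155, edgeR adjusted p = 2.26e-04).

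**Figure D2:**
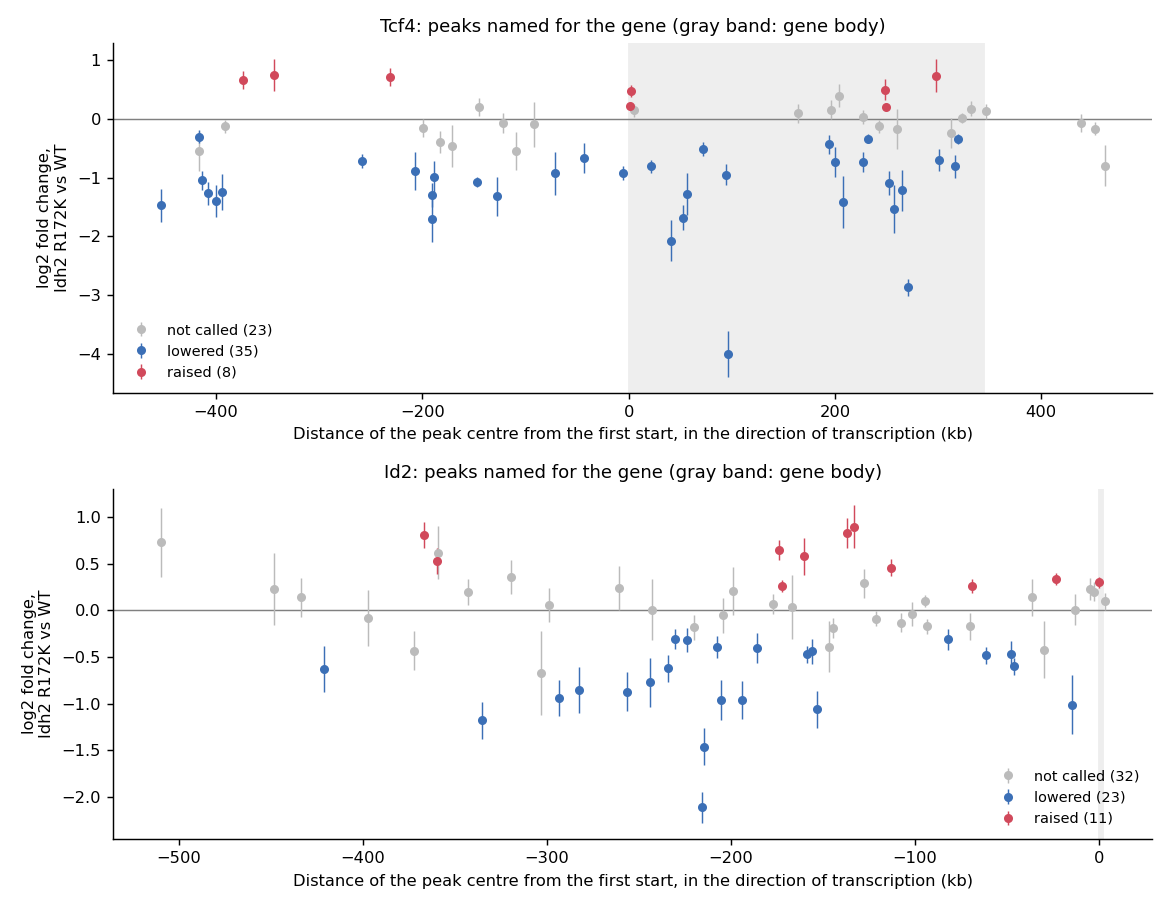
Log2 fold change (Idh2 R172K against WT, with SE) of each tested peak of Tcf4 and Id2 by its distance in kb from the first start, in the direction of transcription. At Tcf4 lowered peaks (35, blue) lay before the start and through the gene body (gray band). At Id2 the peaks between 200 and 300 kb before the start were lowered (11) or not called (5).

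Tcf12 encodes HEB, the E protein that pairs with E2A in early T cells. It lies at chr9:71844252-72111893. In Idh2 R172K 3 of its 24 peaks were raised and 3 lowered (25% called), a smaller share than the 53% of all tested peaks. Both lowered peaks with the lowest p lay past the end of the gene. One (chr9:71834690-71835159) fell from 3.31 ± 0.632 to 1.13 ± 0.434 CPM (SD, n = 4), a log2 fold change of -1.65 ± 0.197 (edgeR adjusted p = 3.73e-09). The other (chr9:71837663-71838289) fell from 2.34 ± 0.125 to 1.02 ± 0.0823 CPM (log2 fold change -1.18 ± 0.2, edgeR adjusted p = 4.19e-06). In both, no mutant library reached the lowest WT library. The raised ones that stand out by p lay inside the gene at low levels: 1.22 ± 0.19 to 2.03 ± 0.232 CPM at chr9:72013628-72014031 and 1.12 ± 0.0666 to 1.95 ± 0.41 CPM at chr9:72034373-72034740 (SD, n = 4). The first was not called within the libraries high at Xist (edgeR adjusted p = 0.0534), nor the other within those low at Xist (0.121). The peak over the internal start printed above (chr9:71895894-71896683) had 5.29 CPM in WT and 4.43 CPM in Idh2 R172K and was not called (edgeR adjusted p = 0.142).

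Tcf3 encodes E12 and E47, the E2A proteins needed for B cell commitment. It lies at chr10:80409541-80433976 and in Idh2 R172K had 2 peaks raised and 1 lowered of 7 (42.9% called, against 53% of all tested peaks). The lowered peak, inside the gene 11.7 kb after the start (chr10:80421787-80422161), is a weak one of the promoter class. It had 0.797, 1.06, 1.25 and 1.48 CPM in WT and 0.269, 0.39, 0.444 and 0.225 CPM in Idh2 R172K. The groups did not overlap, and the log2 fold change was -1.75 ± 0.294 (edgeR adjusted p = 3.53e-06). A peak 27.8 kb before the start (chr10:80461160-80461710) rose from 1.19 ± 0.218 to 1.72 ± 0.493 CPM (SD, n = 4), with overlapping groups. Its log2 fold change of 0.66 ± 0.211 (edgeR adjusted p = 0.00874) gave an adjusted p of 0.0603 without Idh2 R172K library 1 and of 0.378 within the libraries high at Xist.

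Id2, the inhibitor needed for natural killer and innate lymphoid cells, lies at chr12:25093799-25096092, and its 66 peaks reached 509.7 kb away. In Idh2 R172K 11 were raised (16.7%, against 25.1% of all tested peaks) and 23 lowered (34.8%, against 27.9%). Direction differed by distance before the start. Between 200 and 300 kb, 0 were raised and 11 lowered of 16. Between 100 and 200 kb, 6 were raised and 5 lowered of 20. Up to 100 kb, 3 were raised and 5 lowered of 16, and beyond 300 kb 2 and 2 of 13. These bins were set with the values known and carry no test of their own. Within the libraries high at Xist, 12 of the 66 Id2 peaks were raised and 12 lowered, where 15.9% and 18.9% of all tested peaks were. Within those low at Xist it was 9 and 20, against 19.3% and 22.8% of all tested peaks.

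Within the lowered stretch, the peak at chr12:25311632-25312241, 215.8 kb before the start, had 5.77, 4.42, 6.24 and 4.96 CPM in WT and 1.12, 1.66, 1.29 and 1.01 CPM in Idh2 R172K. The other 3 genotypes ran from 4.08 to 6.17 CPM and overlapped WT. The log2 fold change was -2.11 ± 0.168 (edgeR adjusted p = 7.19e-14). Its neighbour at chr12:25310180-25310857 fell from 2.7 ± 0.493 to 0.943 ± 0.246 CPM (SD, n = 4; log2 fold change -1.46 ± 0.2, edgeR adjusted p = 7.00e-08). The most open site of that stretch in WT, 293.3 kb before the start, went from 19.5 ± 2.19 to 10.3 ± 2.05 CPM (log2 fold change -0.94, edgeR adjusted p = 6.42e-04). Raised Id2 peaks lay on either side. One 173.9 kb before the start (chr12:25269608-25270357) rose from 8.11 ± 1.22 to 12.6 ± 1.03 CPM, and one 366.9 kb before it (chr12:25462606-25463311) from 2.49 ± 0.136 to 4.42 ± 0.381 CPM (log2 fold changes 0.65 ± 0.104 and 0.81 ± 0.135, edgeR adjusted p = 1.78e-06 and 3.34e-06).

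**Figure D3:**
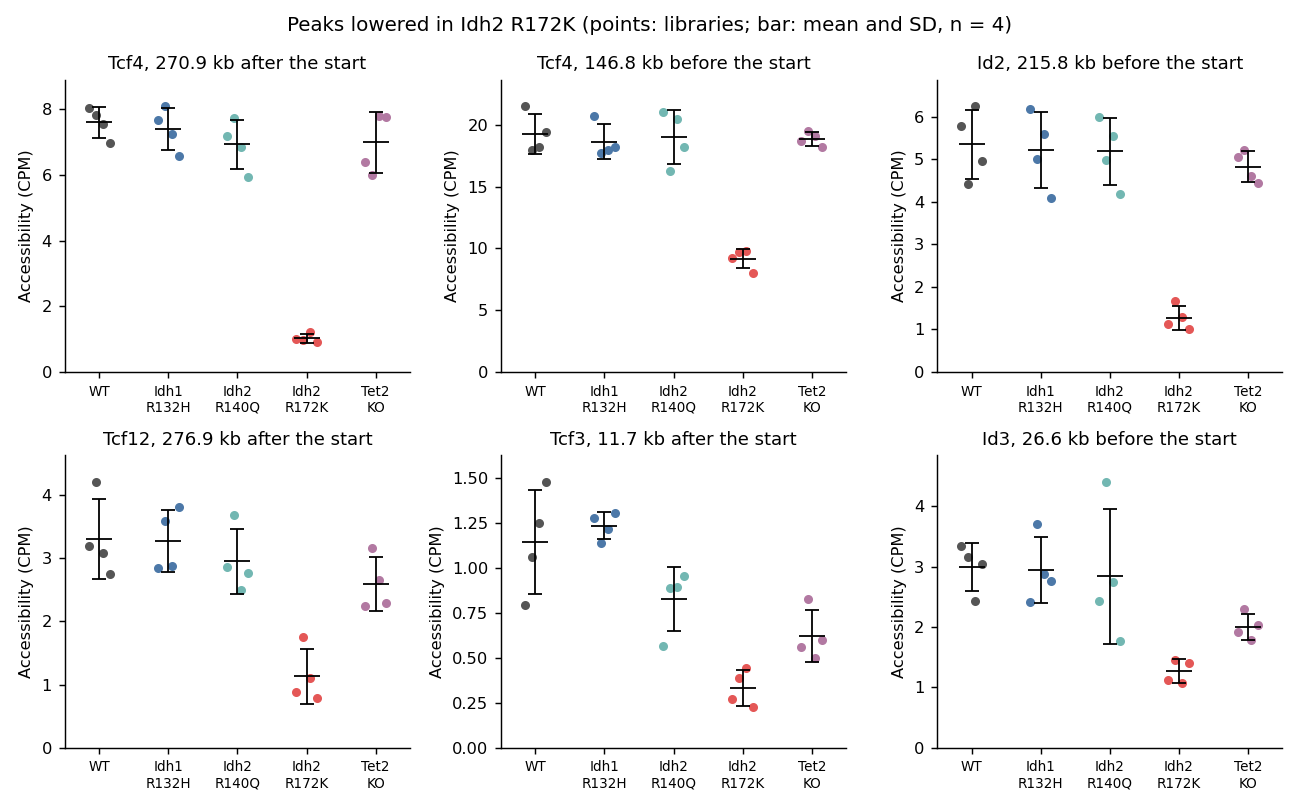
Accessibility (CPM) per library in the 5 genotypes at 6 peaks lowered in Idh2 R172K, with mean and SD (n = 4). The Idh2 R172K libraries lie below every WT library in all 6 panels. At the Tcf3 peak the Tet2 KO libraries (0.502 to 0.828 CPM) are also low.

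Id1 and Id3, both induced by BMP signalling, had few peaks. At Id1 (chr2:152736251-152737410) 2 of 7 were raised in Idh2 R172K and 0 lowered (28.6% called, against 53% of all tested peaks). At Id3 (chr4:136143822-136145392) 2 of 10 were raised and 2 lowered (40% called). The second raised Id1 peak lay 3.3 kb after the start (chr2:152739170-152739989) and rose from 16.1 ± 2.03 to 20.8 ± 2.39 CPM (SD, n = 4; log2 fold change 0.35 ± 0.095, edgeR adjusted p = 0.00259). An Id3 peak 26.6 kb before the start (chr4:136116905-136117523) had 3.34, 3.15, 2.43 and 3.04 CPM in WT and 1.12, 1.46, 1.07 and 1.41 CPM in Idh2 R172K. No library of the mutant reached WT there, and the log2 fold change was -1.31 ± 0.206 (edgeR adjusted p = 1.28e-06). Closer to the start, a peak 3.4 kb before it (chr4:136140333-136140585) rose from 8.06 ± 0.801 to 10.8 ± 0.479 CPM (log2 fold change 0.43 ± 0.0948, edgeR adjusted p = 2.33e-04). A second lowered Id3 peak (chr4:136123027-136123591) fell from 1.3 ± 0.3 to 0.614 ± 0.408 CPM with overlapping groups. Its log2 fold change of -0.95 ± 0.311 (edgeR adjusted p = 0.011) was -0.79 without WT library 2 (adjusted p = 0.05) and -0.66 without Idh2 R172K library 4 (adjusted p = 0.0533), and was not called within the libraries low at Xist (-0.23, adjusted p = 0.608).

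The start-site peak of each gene, the strongest within 1 kb of a start, was raised in 5 of 6 genes and lowered in 0. Promoter-class peaks were also raised more often over all genes: 39.8% were raised and 15% lowered (54.9% called), and of the 16 of these genes 8 and 3. Per kb of peak, mean levels over the 20 libraries were 63.7 CPM at Id3, 61.7 at Id2, 56.6 at both Tcf3 and Tcf4, 21.7 at Tcf12 and 19.1 at Id1. Id1, the lowest of them, changed most. Its start-site peak (chr2:152735948-152736662) had 10.5, 12.3, 8.8 and 12.8 CPM in WT and 19.8, 21.8, 22.8 and 20.6 CPM in Idh2 R172K. All 4 mutant libraries were above all WT libraries, and the log2 fold change was 0.92 ± 0.0933 (edgeR adjusted p = 6.86e-11). At Idh1 R132H (9.97 to 13.3 CPM), Idh2 R140Q (10.4 to 12.9) and Tet2 KO (11.6 to 13.4) the same peak overlapped WT.

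The Id2 start-site peak (chr12:25095843-25096575) had 42.2, 42.6, 45.5 and 45.4 CPM in WT and 57, 51.9, 50.8 and 55.7 CPM in Idh2 R172K, with no overlap (log2 fold change 0.3 ± 0.0609, edgeR adjusted p = 8.34e-05). That of Id3 (chr4:136143574-136144050) went from 29.3 ± 0.511 to 35.1 ± 3.53 CPM, again without overlap (0.25 ± 0.0672, edgeR adjusted p = 0.00202). The changes at Tcf4 (0.21 ± 0.0707, edgeR adjusted p = 0.011) and Tcf3 (0.14 ± 0.0595, edgeR adjusted p = 0.0486) were smaller and their groups overlapped. The Tcf3 peak had the highest CPM, 77.2 ± 4.36 CPM in WT and 85.1 ± 4.01 CPM in Idh2 R172K at chr10:80433060-80434455. The Tcf12 start-site peak (chr9:72110736-72112359) was not called, with 33.9 ± 3.1 and 35.1 ± 2.8 CPM (0.05 ± 0.07, edgeR adjusted p = 0.531).

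The small rises depended on the scaling, as did the promoter-class background: with cyclic loess 23.7% of promoter-class peaks were raised and 18.8% lowered, and with library size alone 27% and 17.9%. With cyclic loess, which removes trends with signal strength, Id1 and Id2 were the start-site peaks still called. Id3 then had 0.13 (edgeR adjusted p = 0.0645), Tcf4 0.08 (0.253) and Tcf3 -0.06 (0.354). With library size alone Tcf4 had 0.14 (edgeR adjusted p = 0.0572) and Tcf3 0.06 (0.345). The Tcf4 call was lost without WT library 3 (edgeR adjusted p = 0.0562) or Idh2 R172K library 4 (0.0761). The Tcf3 call was lost without WT library 1, 3 or 4 or Idh2 R172K library 2 or 3 (adjusted p = 0.0711 to 0.14). Within the libraries high at Xist Tcf4 and Tcf3 were not called (0.184 and 0.208), and within those low at Xist Id3 was not (0.219).

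**Figure D4:**
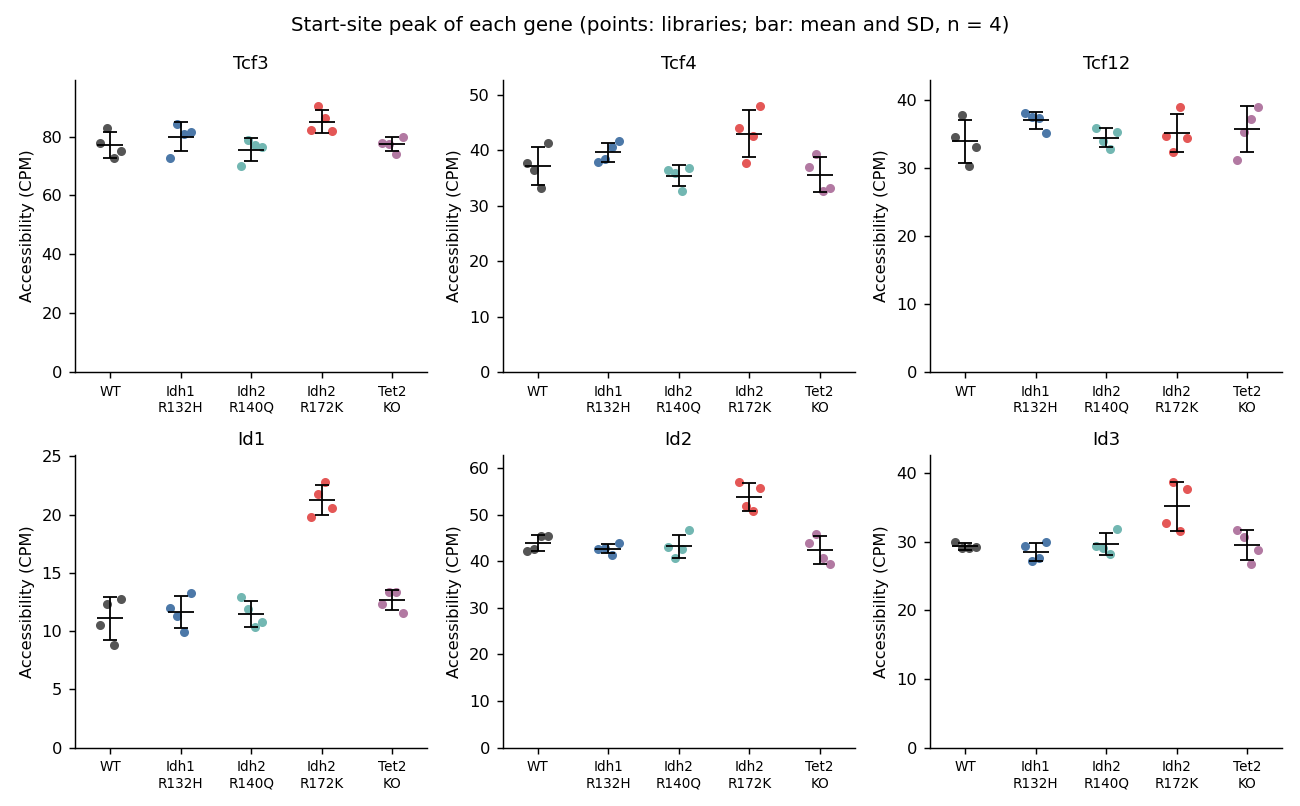
Accessibility (CPM) of the start-site peak of each gene per library, with mean and SD (n = 4), in the 5 genotypes. At Id1 the Idh2 R172K libraries (19.8 to 22.8 CPM) lie above all others (8.8 to 13.4 CPM), while the rises at the other genes are small beside the level.

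Summing all peaks of a gene gives 1 value per gene. Against WT, the Idh2 R172K sums were called for 3 of 6 genes, and over all genes 48.5% were called (23.4% raised, 25.2% lowered). Tcf4 had 328, 302, 314 and 307 CPM in WT and 253, 246, 254 and 244 CPM in Idh2 R172K. These groups did not overlap, and the log2 fold change was -0.32 ± 0.0344 (edgeR adjusted p = 1.35e-08). Id1 rose from 94.2 ± 9.98 to 111 ± 8.57 CPM (SD, n = 4; 0.23 ± 0.0748, edgeR adjusted p = 0.0135) and lost its call without WT library 3 (0.0531) or Idh2 R172K library 3 (0.0549). The Id1 groups overlapped, with 104 CPM in WT library 2 and 101 CPM in Idh2 R172K library 1. Id2 went from 495 ± 19.4 to 457 ± 13 CPM (-0.12 ± 0.0379, edgeR adjusted p = 0.0131). Its call was lost with cyclic loess (-0.04, edgeR adjusted p = 0.292) and without WT library 1 (0.0661) or Idh2 R172K library 4 (0.0515). Tcf12 (9.77 and 9.38 CPM per kb of peak), Tcf3 (23.6 and 24.2) and Id3 (16.4 and 15.9) were not called in that comparison.

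**Figure D5:**
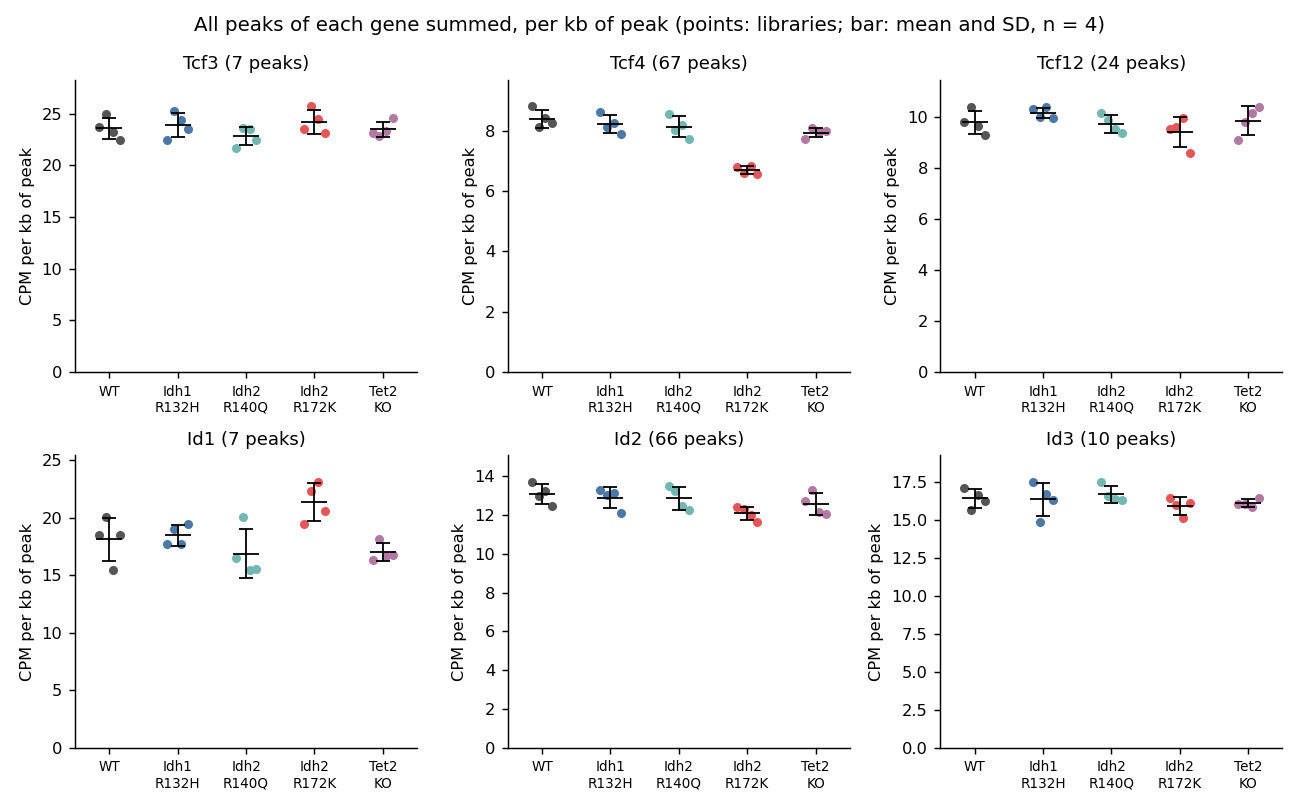
Summed CPM of all peaks per gene, divided by the kb of peak that they cover, per library with mean and SD (n = 4). Tcf4 in Idh2 R172K (6.71 CPM per kb on average) lies below the other 4 genotypes (means 7.95 to 8.41). The Id1 mean (21.4) lies above theirs (16.9 to 18.5), but its libraries overlap those of WT and Idh2 R140Q.

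Against the other mutants, Idh2 R172K gave similar counts for the members. Against Idh2 R140Q, 29 peaks were raised and 54 lowered (all tested peaks: 47% called, 21.5% raised and 25.5% lowered). Against Idh1 R132H it was 26 and 63 (all: 50%, 23.3% and 26.7%), and against Tet2 KO 28 and 53 (all: 44.3%, 20.1% and 24.1%). These comparisons share the Idh2 R172K libraries and so are not independent of one another. The Tcf4 intronic peak at chr18:69613750-69614999 had log2 fold changes of -2.72 against Idh2 R140Q, -2.81 against Idh1 R132H and -2.74 against Tet2 KO (edgeR adjusted p = 9.66e-19, 2.18e-19 and 6.26e-19). At the Id2 peak 215.8 kb before the start they were -2.09, -2.1 and -1.97 in the same order, and at the Id1 start-site peak 0.88, 0.87 and 0.74. None of the Idh2 R172K libraries overlapped the other mutants at these peaks. Summed over peaks, Tcf4 was lower than in each of the other mutants (-0.28, -0.29 and -0.24, background 44.1%, 46.6% and 43.5% of genes called) and Id1 higher (0.34, 0.21 and 0.33). Against Idh1 R132H alone, Tcf12 (-0.11, edgeR adjusted p = 0.0438) and Id2 (-0.09, 0.0462) were also called, and both calls were lost with library size alone (0.113 and 0.0946). Of 14 alternative settings, the Tcf12 call was lost in 8 and the Id2 call in 10. Against Idh1 R132H the call for Id1 was lost without Idh1 R132H library 1 or 3 or Idh2 R172K library 2 or 3 (edgeR adjusted p = 0.0537 to 0.0828).

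In Tet2 KO, 2 of the 180 member peaks were lowered against WT and 0 raised (1.11%), where 3.1% of all tested peaks were called (0.785% raised, 2.32% lowered). At an unadjusted p under 0.05 there were 19 of 180, against 19667 of all 123908 tested peaks. Both called peaks are weak regions that were also lowered in Idh2 R172K, a comparison with the same WT libraries. The Tcf4 region at chr18:69439364-69439675 had 1.03, 1.17, 0.541 and 0.901 CPM in Tet2 KO, all under the lowest WT library (1.25 CPM). Its log2 fold change was -0.88 ± 0.238 (edgeR adjusted p = 0.0287). The Tcf3 region at chr10:80421787-80422161 had 0.56, 0.828, 0.502 and 0.601 CPM, overlapping WT (-0.87 ± 0.249, edgeR adjusted p = 0.0401). Both remained higher than in Idh2 R172K, by edgeR adjusted p = 1.62e-07 and 0.0261. Neither call is firm. The Tcf4 call was lost without WT library 1, 2 or 4 or Tet2 KO library 3 or 4 (edgeR adjusted p = 0.0636 to 0.162). Within the libraries low at Xist neither was called (0.603 and 0.632), nor with DESeq2 (0.0608 and 0.101). The Tcf3 call was lost without WT library 2, 3 or 4 or Tet2 KO library 1, 3 or 4 (edgeR adjusted p = 0.0687 to 0.179). An Id3 peak 26.6 kb before the start had a Tet2 KO value of -0.6 ± 0.182 (edgeR adjusted p = 0.056), with no overlap with WT. Summed per gene, 0 of 6 were called in Tet2 KO (background 1.51%). Tcf4, at -0.08 (edgeR adjusted p = 0.278), alone had an unadjusted p under 0.05.

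Idh1 R132H and Idh2 R140Q gave 0 called member peaks against WT, with backgrounds of 0.0274% and 0.0153% of all tested peaks. At an unadjusted edgeR p under 0.05 there were 5 and 6 of 180, against 6282 and 6810 of all 123908 tested peaks. DESeq2 also called 0 member peaks in each. The median log2 fold changes of the members were 0.01 and -0.02. At the Tcf4 intronic peak 270.9 kb after the start, Idh1 R132H differed from WT by -0.04 ± 0.104 and Idh2 R140Q by -0.13 ± 0.106 (log2, SE). At the Id1 start-site peak they differed by 0.05 ± 0.0966 and 0.04 ± 0.0975. Gene sums were called for 0 of 6 genes in either (background 0.0281% and 0.00562%). No gene sum had an unadjusted p under 0.05 in these comparisons, and DESeq2 called 0 as well.

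The member peaks raised in Idh2 R172K also differed from the others in features the assignment did not use. Lowered peaks had a median width of 538 bp and a median WT level of 2.41 CPM, and 4.69% were of the promoter class. Member peaks not called were close to them (522 bp, 2.42 CPM and 5.68%). Raised peaks were wider (666 bp), more open in WT (5.79 CPM) and of the promoter class in 28.6%. Over all tested peaks the same features ran 503 bp, 2.62 CPM and 6.77% for lowered peaks and 632 bp, 4.25 CPM and 20% for raised ones. For those not called they were 479 bp, 2.09 CPM and 12.1%.

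Other genes of the pathway were taken from lists of partners, repressors, cofactors, targets and signals. Between 44.4% and 53.6% of their peaks were called per list in Idh2 R172K, against 53% of all tested peaks (25.1% raised, 27.9% lowered). The partner list held 11 genes: Tal1, Tal2, Lyl1, Msc, Ascl2, the inhibitor gene Id4 and those of the LIM complex. These genes had 47 peaks raised and 51 lowered of 183 (25.7% and 27.9%). Their median log2 fold change was -0.09. Among them Lmo4, a LIM-only adaptor, had a peak at 7.77 ± 0.889 CPM in WT and 2.71 ± 0.432 CPM in Idh2 R172K (SD, n = 4; log2 fold change -1.55, edgeR adjusted p = 6.4e-13). A peak in an intron of Ldb1, which bridges TAL1 and E protein complexes, rose from 13.2 ± 0.921 to 21.9 ± 1.57 CPM (0.73, edgeR adjusted p = 1.19e-10). An intronic peak of Ssbp3, an LDB1 partner, fell from 12.9 ± 0.66 to 6.41 ± 0.591 CPM (-1.01). Repressors that bind E-boxes or related sites (7 genes) had 28 raised and 38 lowered of 144 (19.4% and 26.4%). A peak far outside Zeb2 rose from 2.46 ± 0.624 to 8.29 ± 1.54 CPM (1.8, edgeR adjusted p = 1.72e-13), and peaks outside Hes1 and Hey1 fell (-1.28 and -1.57).

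Cofactors, the ETO family and acetyltransferases, had 23 raised and 13 lowered of 81 peaks (28.4% and 16%). More were thus raised than lowered, unlike all tested peaks (25.1% and 27.9%). Runx1t1, which encodes ETO, gained an intronic site from 9.2 ± 1.27 to 21.2 ± 3.17 CPM (1.22, edgeR adjusted p = 1.7e-12). Its relatives went both ways: a Cbfa2t3 peak rose (47.2 to 76.6 CPM, 0.7) and a Cbfa2t2 peak fell (3.86 to 1.46 CPM, -1.4). E protein targets in lymphoid cells had 81 raised and 96 lowered of 332 peaks (24.4% and 28.9%) over 20 of the 23 genes listed. An intronic peak of Pax5, the B lineage commitment factor, fell from 3.04 ± 0.262 to 0.299 ± 0.0593 CPM (SD, n = 4; -3.28, edgeR adjusted p = 4.67e-15). An intronic peak of Dntt, the enzyme that adds bases at antigen receptor joins, fell from 12.4 ± 0.383 to 3.5 ± 0.49 CPM (-1.82). A distal Cxcr4 peak fell from 14.5 ± 0.895 to 4.35 ± 0.428 CPM (-1.72).

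The BMP and TGF-beta list held 22 signalling genes, inhibitors of the route among them. In Idh2 R172K 71 of its 306 peaks were raised and 87 lowered (23.2% and 28.4%). Acvr1, a BMP receptor, had an intronic peak that fell from 6.29 ± 0.824 to 0.913 ± 0.271 CPM (-2.9, edgeR adjusted p = 7.95e-19). A peak near Tgfbr2, the TGF-beta receptor, fell from 12.6 ± 1.06 to 2.85 ± 0.505 CPM (-2.19). One near Smad2, a TGF-beta effector, fell from 17 ± 1.36 to 3.49 ± 0.816 CPM (-2.27). In Tet2 KO this list had 2 raised and 11 lowered peaks (4.25% called), the Tgfbr2 peak among them (6.57 ± 0.311 CPM, -0.94, edgeR adjusted p = 1.47e-07). The promoter peak of Tgfbr1 fell there from 116 ± 5.36 to 82 ± 5.89 CPM (-0.5). Over all tested peaks 3.1% were called in Tet2 KO. E protein targets had 1 raised and 12 lowered of 332 there (3.92% called), repressors 2 and 7 of 144 (6.25%), partners 1 and 1 of 183 (1.09%), and cofactors 0 of 81 (lowest edgeR adjusted p 0.12, 13 at an unadjusted p under 0.05, and 0 by DESeq2). In Idh1 R132H and Idh2 R140Q 0 peaks of any of the 5 lists were called by edgeR or DESeq2, with 4 to 24 and 7 to 27 per list at an unadjusted p under 0.05. Of all 123908 tested peaks, 6282 and 6810 passed that unadjusted threshold, and 19667 did in Tet2 KO.

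Summed markers of other blood cells also differed between genotypes. The peaks of 5 of 6 B cell markers summed to 149 ± 7.81 CPM in WT (SD, n = 4, lowest 142) and 129 ± 3.49 CPM in Idh2 R172K, without overlap. Those of 5 of 6 erythroid markers summed to 169 to 179 CPM in WT and 197 to 202 CPM in Idh2 R172K, and the 10 LSK markers to 1490 to 1560 and 1580 to 1680 CPM. The plasmacytoid dendritic cell markers, of interest for Tcf4, ran from 393 to 416 CPM in WT and 391 to 402 CPM in Idh2 R172K, so these ranges overlapped. T cell (128 to 131 and 127 to 135 CPM), neutrophil and monocyte (179 to 208 and 175 to 190) and stromal sums (356 to 384 and 351 to 374) overlapped too. Over all tested peaks 27.9% were lowered and 25.1% raised in Idh2 R172K (53% called). Peak by peak, 14 of 29 neutrophil and monocyte marker peaks were lowered there and 1 raised (48.3% and 3.45%, median log2 fold change -0.4). Of 87 stromal marker peaks 34 were lowered and 21 raised (39.1% and 24.1%, -0.28). Of 29 T cell marker peaks it was 9 and 4 (31% and 13.8%, -0.26). Of 36 B cell marker peaks 13 were lowered and 5 raised (36.1% and 13.9%, -0.16). Plasmacytoid dendritic cell markers had 21 and 13 of 65 (32.3% and 20%, -0.02), and erythroid ones 9 and 5 of 30 (30% and 16.7%, 0.01). LSK markers had 65 lowered and 68 raised of 240 (27.1% and 28.3%, 0.04). The part of these shifts in the results for the 6 genes was not tested.

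Across the 20 libraries, the genes whose summed accessibility was most like that of Tcf4 were Msrb3 (Pearson r = 0.978 of log2 CPM) and Esr1 (0.977). For Id2 they were Rab11fip4 (0.93) and Uaca (0.906), for Id1 Prkab2 (0.913) and Nup107 (0.911), and for Tcf12 Mtif3 (0.881) and Zmynd12 (0.864). Tcf3 was most like Fbxo3 (0.818) and Idnk (0.811), and Id3 most like Cracdl (0.807) and Emp1 (0.767). These are descriptions over 14502 genes compared, and all points share libraries, depth and the difference between Idh2 R172K and the rest.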

How the data were processed

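ATAC-seq of LSK cells gave counts per peak in 1 peak set for 20 libraries. The authors deposited whole-number counts, with Trim Galore, BWA, Picard, SAMtools, MACS2, featureCounts and build mm10 named in the submitters' processing notes. The sources used here give neither versions nor order, nor any shift of reads to the transposase position or whether a count is a read or a fragment. Count columns were tied to samples by genotype and number, and the columns naming Idh1 with R140Q were taken as Idh2 R140Q, the only genotype with that change. Peak classes and distances come from the deposited annotation, which pairs no symbols, so gene names came from RefSeq's table for GRCm38.p6 (21900 protein-coding genes).

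The test was edgeR 4.0.16's quasi-likelihood fit under R 4.3.3 (scaling by TMM, expression filter by genotype, robust, 1 mean per genotype, 2-sided). Benjamini-Hochberg adjustment covered all 123908 tested peaks, or 17779 gene sums, with a threshold of 0.05. One Tcf4 peak fell under the filter. CPM use TMM-scaled totals. The members, lists and bins were chosen with earlier results of these data known. Named peaks are the start-site peak of each gene, the 2 raised and 2 lowered with the lowest p per gene in Idh2 R172K and in Tet2 KO, and up to 3 genes per list. Values named beyond the rule are the Tcf4 peak nearly closed in Idh2 R172K as seen in that genotype, the Id2 peak 293.3 kb before the start, the peak at the internal Tcf12 start and, in Tet2 KO, the Id3 peak. Alternatives were DESeq2 1.42.0 (size factors, test), library size alone, cyclic loess (limma 3.58.1), no filter, the replicate block, each library left out, the Xist sets and naming by the deposited nearest start. The fit was tested on simulated data.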

Additional observations from a re-analysis of the deposited data

Results flagged for a closer look

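Among 155 sets of 4 libraries (25 named peaks and 6 gene sums in 5 genotypes), 10 held 1 library far from the other 3 by Dixon's test, and chance flags about 1 in 20. In WT, the Id1 peak 3.3 kb after the start had 1 library at 13.1 CPM (others 17 to 17.2). The Id2 peak 366.9 kb before the start had 1 at 2.69 CPM (others 2.41 to 2.43), and the Tcf3 peak 27.8 kb before the start 1 at 1.51 CPM (others 1.06 to 1.11). In Idh2 R172K, the Id3 peak 3.4 kb before the start had 1 library at 10.1 CPM (others 11 to 11.1) and the Tcf4 peak 2.8 kb after the start 1 at 9.8 CPM (others 13.1 to 13.6). In Idh1 R132H, a Tcf12 peak past the gene end had 1 at 1.81 CPM (others 2.68 to 2.8), and the Tcf4 peak 146.8 kb before the start 1 at 20.7 CPM (others 17.7 to 18.2). In Idh2 R140Q, Tcf3 peaks 11.7 kb after and 27.8 kb before the start had 1 at 0.565 CPM (others 0.892 to 0.958) and 1 at 0.898 CPM (others 1.41 to 1.45). In Tet2 KO, the Tcf4 peak 231.8 kb before the start had 1 at 1.89 CPM (others 2.52 to 2.63).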

How the results depend on the processing

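Naming by the deposited nearest start left 75 member peaks (11 of Tcf4, 0 of Tcf12) in place of 181. Of these, 44 were called in Idh2 R172K against WT (58.7%, against 51.1% of the 180 and 53% of all tested peaks). Against Idh2 R140Q it was 43 (57.3%, all tested peaks 47%). Against Idh1 R132H it was 42 (56%, all 50%) and against Tet2 KO 41 (54.7%, all 44.3%). Of those 11 Tcf4 peaks 8 were lowered and 2 raised. Within the libraries high at Xist, which are fewer, 60 member peaks were called against WT (33.3%, all tested peaks 34.8%). The counts were 49 against Idh2 R140Q (27.2%, all 27.5%) and 47 against Tet2 KO (26.1%, all 28.4%). In Tet2 KO against WT the count of 2 became 0 with the DESeq2 test, which called 2.24% of all tested peaks. It became 6 with the replicate block (3.33%, all tested peaks 5.35%) and 1 within libraries low at Xist (0.556%, all 2.92%). With 1 library left out it ran from 0 to 6, where 1.7% to 3.47% of all tested peaks were called. It was 0 without WT library 2 or 4 or Tet2 KO library 3 or 4, and 6 without Tet2 KO library 2. Gene sums called against Idh1 R132H went from 4 to 2 with library size alone and with cyclic loess, and from 1 to 4 with 1 library left out (1 without Idh1 R132H library 1 or 3 or Idh2 R172K library 2). The Tcf3 start-site peak reversed under cyclic loess (-0.06). The cause of these changes was not tested. The other totals of member peaks and of gene sums called in each comparison stayed within 1.5 times under the alternatives run. Counts within these totals moved further in places. Within the libraries high at Xist lowered peaks in Idh2 R172K against WT fell from 35 to 20 at Tcf4 and from 23 to 12 at Id2. Over all tested peaks the lowered share went from 27.9% to 18.9%. Raised member peaks against Idh2 R140Q fell there from 29 to 14, and the raised share of all tested peaks from 21.5% to 11.8%. With cyclic loess, start-site peaks called fell from 5 to 2. There were 84 to 94 member peaks called in Idh2 R172K against WT when 1 library was left out (46.7% to 52.2%, all tested peaks 47% to 51.4%).

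The labels do not say that a replicate number marks a shared batch. Same-numbered libraries of different genotypes had correlations of -0.094 to 0.289 in their deviations from the genotype means (median 0.101, over 0.1 in 21 of 40 pairs), and differently numbered ones a median of -0.035 (over 0.1 in 7 of 120). Not every same-numbered pair passed 0.1, and the main fit did not take the numbers as pairs. Whether a number marks a shared batch was not tested. The number also ran with the Xist set: in WT and the Idh mutants libraries 1 and 3 were low and 2 and 4 high. In Tet2 KO libraries 1 and 2 were low and 3 and 4 high. With the replicate block, 97 member peaks were called in Idh2 R172K against WT (53.9%, against 55.3% of all tested peaks). In Idh1 R132H and Idh2 R140Q it was 0 in both, against 0.0775% and 0.0291% of all tested peaks. With 2 libraries per genotype in an Xist set and 10502052 counts in the shallowest library, depth and number limit what small changes can be seen.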
